A study of Mus musculus with 6 samples.

Results

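NRF2, encoded by Nfe2l2, is the main transcription factor of the antioxidant response, and 10 genes of this system were followed here: its regulators Nfe2l2, Keap1, Bach1, Mafg and Maff, and the antioxidant or NRF2-responsive genes Nqo1, Cat, Sod1, Sod2 and Osgin1. They were taken by name, not by their measured values, but with earlier results of these data known. All 10 were found among the 16871 genes listed in at least 1 library. RNA had been sequenced from bone marrow-derived macrophages, cells grown from the marrow of C57BL/6 mice aged 8 weeks, cultured for 7 days and then exposed to oxidised low-density lipoprotein (oxLDL), the modified lipoprotein that loads macrophages with cholesterol. The control group, LKO, lacked the LDL receptor, and the second group, DKO, lacked both the LDL receptor and ALDH2, the mitochondrial enzyme that clears acetaldehyde and lipid-derived aldehydes. Each group had 3 libraries, every one of them from LDL receptor knockout cells given oxLDL, so no library shows the resting level of these genes. The labels do not state that the libraries came from separate animals; each p-value therefore reflects only how these libraries spread, which may be technical.

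In unstressed cells the adaptor protein KEAP1 holds NRF2 on a CUL3 ubiquitin ligase, which marks it for degradation. Electrophiles such as reactive aldehydes modify cysteines of KEAP1, and NRF2 then builds up, pairs with a small MAF protein and binds antioxidant response elements in its target genes. BACH1 pairs with the same small MAF proteins and represses an overlapping set of genes, and haem releases it from DNA. Much of this control acts on protein stability and location, which messenger RNA levels do not measure.

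Depth was even, at 10760625 to 10987584 expected counts per library. Aldh2 (NCBI gene 11669), the targeted gene, ranged from 236 to 249 FPKM in LKO and from 7.00 to 7.34 in DKO, so it was low in every library labelled DKO. FPKM is a read level scaled to transcript length and to library depth. Macrophage markers were abundant in every library, with a summed level of 9205 to 9934 FPKM in LKO and 10492 to 11706 in DKO. Of 8 tested, 5 were higher in DKO and 1, Adgre1, was lower (log2 fold change −0.13, edgeR adjusted p = 0.0182). Adgre1 lost its call without DKO replicate 2 (edgeR adjusted p = 0.0536) or DKO replicate 3 (0.0968). Limma did not call it either (adjusted p = 0.0846), and it held in 8 of 16 alternative fits. DESeq2 called 5 macrophage markers higher and 1 lower, and limma 5 and 0. Among the 5, Lyz2 had a log2 fold change of −0.04 after quantile normalization. That scaling gives every library the same value at each rank. It can therefore hide a change in a gene as abundant as Lyz2 (percentile 99.97 by mean FPKM), but whether it did so here was not tested. Markers of other cells moved too; over all genes tested, 7.42% were higher in DKO and 6.88% lower. Of 11 neutrophil markers tested, 7 were lower in DKO (summed level 618 to 677 FPKM in LKO, 416 to 455 in DKO), as were 5 of 5 lymphocyte markers (109 to 121, and 84.7 to 92.9), while 6 of 7 stromal markers were higher (40.3 to 46.3, and 67.0 to 91.0). These counts of neutrophil, lymphocyte and stromal markers were 5, 4 and 4 by DESeq2 and 6, 4 and 4 by limma. Some calls were weak: the neutrophil marker Camp held in 7 of 16 alternative fits. The lymphocyte marker Cd4 held in 2 of 16, and the stromal marker Pdgfrb in 5 of 11. No marker found in the files was at 0 in all 6 libraries, and Ighm, a lymphocyte marker, could not be matched by symbol. Their part in the results was not tested, and in bulk samples fewer cells of a type and less RNA per cell cannot be told apart.

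Transcripts of the 10 genes spanned a wide range. By FPKM, the order in LKO was Sod1 (332 ± 12.3, mean ± SD, n = 3), Cat (215 ± 4.58), Nfe2l2 (83.7 ± 2.37), Bach1 (37.2 ± 0.654), Sod2 (28.02 ± 0.673), Mafg (22.6 ± 1.13), Keap1 (19.9 ± 0.706), Osgin1 (7.44 ± 0.631), Maff (0.537 ± 0.165) and Nqo1 (0.20 ± 0.125). No pair of neighbours in that order had overlapping libraries in LKO. In DKO, Keap1 (23.1 ± 1.06) stood above Mafg (22.7 ± 2.65), but the libraries of that pair overlapped, as did those of Maff (0.417 ± 0.045) and Nqo1 (0.413 ± 0.270). By mean FPKM, Sod1 and Cat lay at percentiles 98.4 and 97.7 of the genes tested, Nfe2l2 at 92.6 and Osgin1 at 47.1.

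Among these genes, Cat, Keap1 and Osgin1 were higher in DKO and none was lower past the threshold. Of the 8 that had enough reads for the test across all genes, 3 passed an edgeR adjusted p of 0.05 upward, against 7.42% of the 11809 genes tested, and 0 passed downward, against 6.88%. At an unadjusted p under 0.05 the downward count was also 0, as it was by DESeq2 and by limma. Groups did not overlap, with DKO above, for the same 3 genes (13.6% of all genes tested), and with DKO below for 1, Nfe2l2 (16.0%). Nqo1 and Maff had too few reads for the test. The upward count was 1, with Cat alone, without LKO replicate 2, without DKO replicate 2 or without DKO replicate 3.

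**Figure D1:**
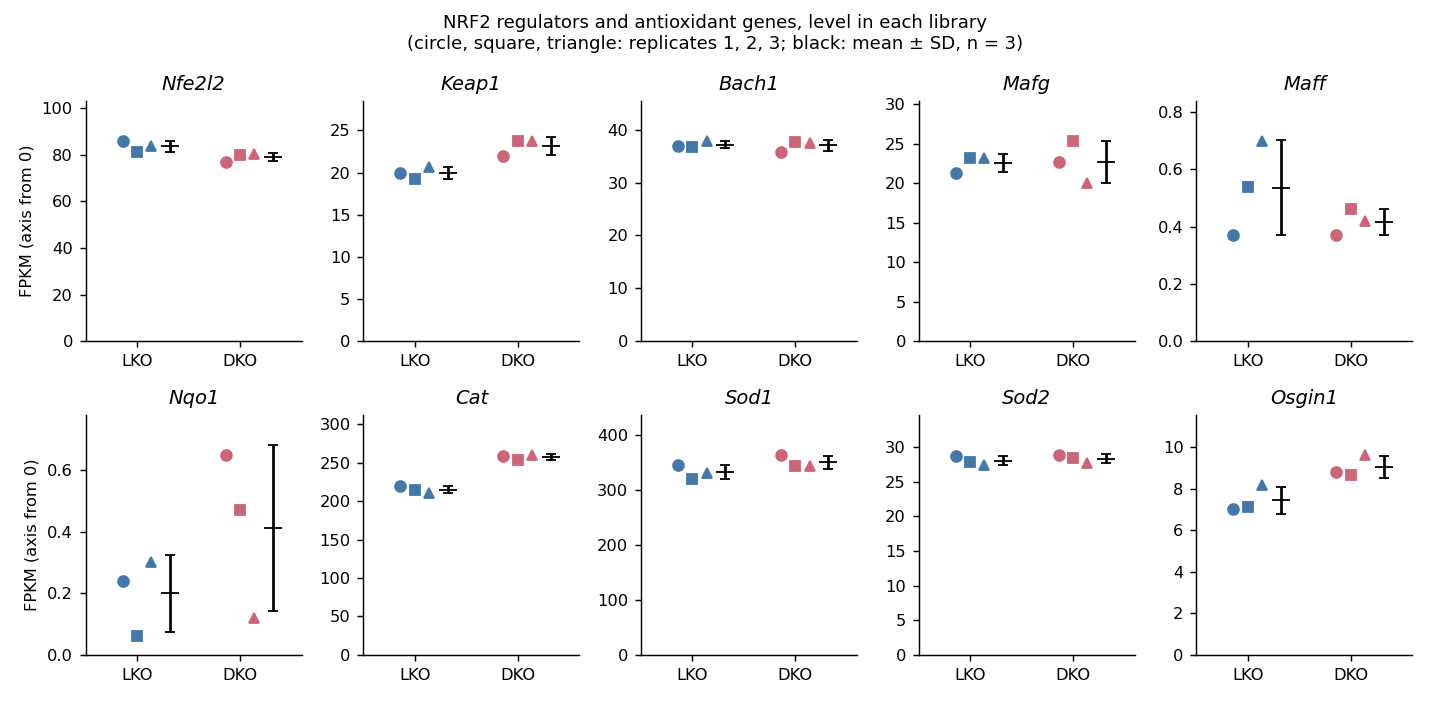
Level of each of the 10 genes in FPKM on axes that start at 0, with LKO libraries in blue and DKO libraries in red, symbols for replicates 1 to 3 and the mean ± SD in black. The DKO libraries of Cat, Keap1 and Osgin1 all lie above the LKO libraries, those of Nfe2l2 lie just below, and Nqo1 stays under 1 FPKM in every library.

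Nfe2l2 (NCBI gene 18024) encodes the activator itself. Its levels were 86.0, 81.3 and 83.9 FPKM in LKO replicates 1 to 3 and 76.9, 80.0 and 80.2 in DKO. Every DKO library was below every LKO library, by a narrow margin. The log2 fold change was −0.07 ± 0.04 (SE), with a 95% interval from −0.17 to 0.02 (edgeR adjusted p = 0.334) and a fold change of 0.951 (interval 0.891 to 1.01). The adjusted p was between 0.247 and 0.593 in the 16 alternative fits.

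Keap1 (NCBI gene 50868), the adaptor that directs NRF2 to degradation, measured 19.98, 19.2 and 20.6 FPKM in LKO against 21.9, 23.8 and 23.7 in DKO. The groups did not overlap. Its rise was 1.17-fold (log2 fold change 0.22 ± 0.06 SE, 95% interval 0.10 to 0.34, edgeR adjusted p = 0.0125). It missed the threshold without LKO replicate 2 (edgeR adjusted p = 0.0851), DKO replicate 2 (0.0626) or DKO replicate 3 (0.0702), and in limma without a filter (0.0652).

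Set against each other within a library, Nfe2l2 and Keap1 gave a ratio of FPKM values of 4.31, 4.23 and 4.07 in LKO and 3.51, 3.37 and 3.38 in DKO. The mean ratio was 4.20 ± 0.12 in LKO and 3.42 ± 0.079 in DKO (SD, n = 3), a log2 difference of −0.30 against a spread of 0.04 (SD of the log2 ratio within groups). The groups did not overlap. By exact permutation of the library labels, two-sided, p was 0.1, and no smaller p can be reached with 3 libraries a group; it remained 0.1 when adjusted over the 3 ratios computed.

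Bach1 (NCBI gene 12013), the repressor that competes for the same DNA elements, measured 36.9, 36.7 and 37.9 FPKM in LKO against 35.9, 37.7 and 37.5 in DKO. The groups overlapped, although DKO replicate 1 lay below every LKO library. The log2 fold change of Bach1 was 0.01 ± 0.04 (SE), with a 95% interval from −0.09 to 0.10 (edgeR adjusted p = 0.961). The ratio of Nfe2l2 to Bach1 was 2.33, 2.22 and 2.21 in LKO and 2.14, 2.12 and 2.14 in DKO, with no overlap and a log2 difference of −0.08 against a spread of 0.03 (exact two-sided permutation p = 0.1, also after adjustment over the 3 ratios).

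Of the small MAF partners, Mafg did not pass the test and Maff had too few reads for it. Mafg (NCBI gene 17134) measured 21.3, 23.2 and 23.2 FPKM in LKO against 22.7, 25.4 and 20.1 in DKO, with the DKO libraries spread on both sides of the control range (log2 fold change 0.02, 95% interval −0.14 to 0.18, edgeR adjusted p = 0.92). Maff (NCBI gene 17133), an inducible member of the family, measured 0.37, 0.54 and 0.70 FPKM in LKO against 0.37, 0.46 and 0.42 in DKO. It rested on 34 reads in LKO and 27 in DKO, a depth-scaled ratio of 0.786 with an exact 95% counting interval from 0.456 to 1.34 (exact permutation p = 0.3). No difference in Maff was detectable at this depth.

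**Figure D2:**
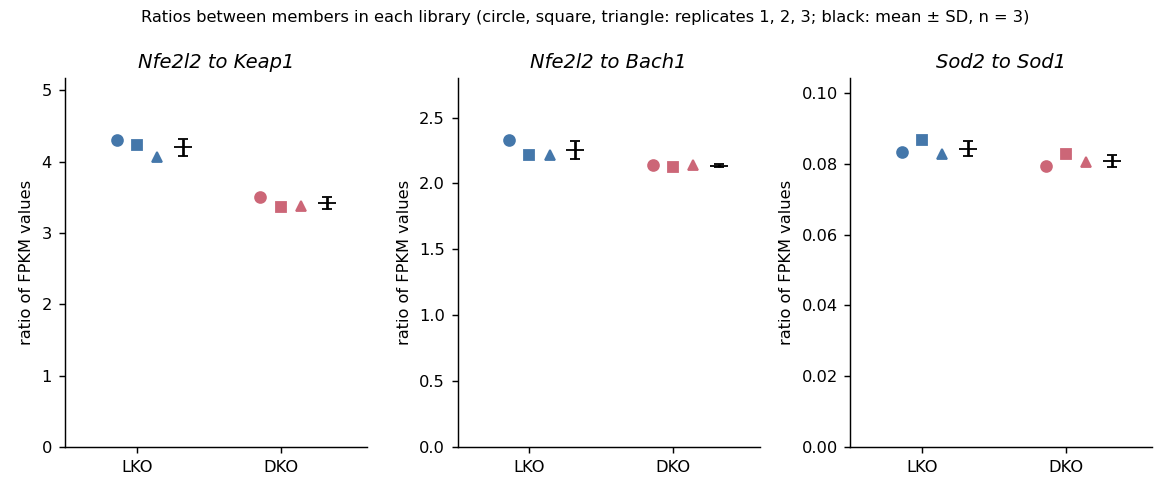
Ratios of FPKM values between pairs of genes in each library, on axes that start at 0, with replicates as symbols and the mean ± SD (n = 3) in black. The ratio of Nfe2l2 to Keap1 is 4.07 to 4.31 in LKO and 3.37 to 3.51 in DKO, while the other ratios differ by less.

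Cat (NCBI gene 12359), catalase, breaks down hydrogen peroxide, mainly in peroxisomes. It had 219, 215 and 210.3 FPKM in LKO and 259, 253 and 261 in DKO. The lowest DKO library stood well above the highest LKO library. The rise was 1.21-fold (log2 fold change 0.27 ± 0.04 SE, 95% interval 0.19 to 0.35, edgeR adjusted p = 4.26e-05), and the call held in each of the 16 alternative fits, with adjusted p from 1.6e-09 to 0.00815.

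The genes that build peroxisomes, the organelles that hold catalase, gave no call. Of 15 Pex genes, 0 passed in either direction by edgeR, by DESeq2 or by limma, and 2 were higher at an unadjusted p under 0.05. With 7.42% of all genes tested called higher and 6.88% lower, a count of 0 in a list this short is near the background. Pex19, a receptor for peroxisomal membrane proteins, measured 16.9 ± 0.728 FPKM in LKO against 18.6 ± 0.146 in DKO (edgeR adjusted p = 0.104). Pex6, an ATPase of the import machinery, was at 12.8 ± 0.972 and 14.1 ± 0.667 (edgeR adjusted p = 0.151). Pex5, the import receptor of most peroxisomal enzymes, was at 13.2 ± 0.232 and 13.9 ± 0.715 (edgeR adjusted p = 0.457), and Pex10 at 2.44 ± 0.568 and 2.79 ± 0.285 (edgeR adjusted p = 0.567).

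The superoxide dismutases turn superoxide into hydrogen peroxide, SOD1 mainly in the cytosol and SOD2 in the mitochondrial matrix. Sod1 (NCBI gene 20655), the most abundant of the 10 transcripts, measured 345, 320.4 and 332 FPKM in LKO against 364, 343 and 343 in DKO. The lowest DKO libraries fell just under the highest LKO library. Its log2 fold change was 0.09 ± 0.05 (SE), with a 95% interval from −0.01 to 0.18 (edgeR adjusted p = 0.248). Sod2 (NCBI gene 20656) measured 28.8, 27.8 and 27.5 FPKM in LKO against 28.9, 28.4 and 27.7 in DKO, again with overlapping libraries (log2 fold change 0.03, 95% interval −0.08 to 0.13, edgeR adjusted p = 0.799). Its expected counts were fractional, so part of its reads may be shared with other genes and its value is less certain. The ratio of Sod2 to Sod1 was 0.084 ± 0.0022 in LKO and 0.081 ± 0.0017 in DKO (SD, n = 3). The highest DKO library, at 0.0827, lay just under the lowest LKO library, at 0.0828. The log2 difference was −0.06 against a spread of 0.03 (exact two-sided permutation p = 0.1, also after adjustment over the 3 ratios).

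Osgin1 (NCBI gene 71839), a growth inhibitor induced by oxidised lipids, measured 7.03, 7.13 and 8.17 FPKM in LKO against 8.82, 8.68 and 9.65 in DKO. The groups did not overlap, but LKO replicate 3 came close to the DKO libraries. The rise was 1.23-fold (log2 fold change 0.29 ± 0.10 SE, 95% interval 0.09 to 0.50, edgeR adjusted p = 0.0486). This call lay at the threshold: it held in only 3 of 16 alternative fits and was lost in DESeq2 (adjusted p = 0.246), without a count filter (edgeR adjusted p = 0.0699), in the limma fits (adjusted p = 0.057 to 0.123) and without any replicate but LKO replicate 3 (edgeR adjusted p = 0.0624 to 0.212).

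Nqo1 (NCBI gene 18104), the quinone reductase often used as a readout of NRF2, was close to the detection limit. It measured 0.24, 0.06 and 0.30 FPKM in LKO against 0.65, 0.47 and 0.12 in DKO. These values rested on 4, 1 and 5 reads in LKO and 11, 8 and 2 in DKO, and the groups overlapped, with DKO replicate 3 below LKO replicates 1 and 3. The depth-scaled ratio was 2.08, with an exact 95% counting interval from 0.937 to 4.94 (exact permutation p = 0.3), so a difference in Nqo1 was not detectable at this depth.

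**Figure D3:**
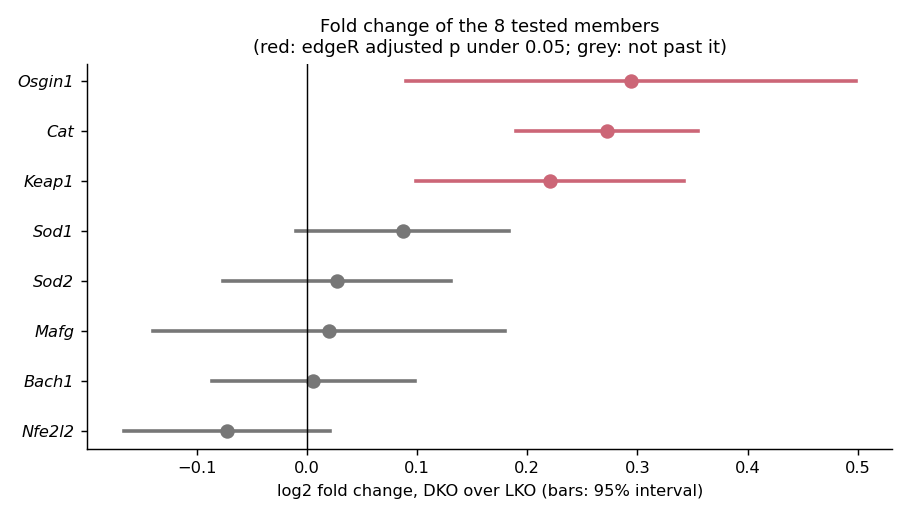
Log2 fold change of DKO over LKO for the 8 genes with enough reads for the test, with bars for the 95% interval, red where the edgeR adjusted p was under 0.05. Cat, Keap1 and Osgin1 lie to the right of 0, from 0.22 to 0.29, and the intervals of the other 5 genes include 0.

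Most transcripts of proteins that act around NRF2 did not pass the test. Of 18 tested regulators and partners, 2 were higher in DKO and 0 lower (1 lower at an unadjusted p under 0.05, 0 by DESeq2 and by limma), shares near the 7.42% and 6.88% of all genes tested. DESeq2 and limma each called 1 higher. The median log2 fold change was 0.02, beside 0.00 over all genes tested. Sqstm1, the autophagy receptor p62 that can displace NRF2 from KEAP1 and is itself an NRF2 target, rose from 160.1, 174 and 164 FPKM to 198, 194 and 188 (0.23 ± 0.05 SE on the log2 scale, edgeR adjusted p = 0.000849). Crebbp, a coactivator, rose from 7.93 ± 0.624 to 9.35 ± 0.906 FPKM (edgeR adjusted p = 0.0216), a call lost in DESeq2 (0.0527), in limma (0.147) and without LKO replicate 1 (0.0937) or DKO replicate 3 (0.177). Nfe2, a blood-cell relative of NRF2, had 1.6 ± 0.031 and 1.06 ± 0.153 FPKM (edgeR adjusted p = 0.117), and Cand1, which exchanges cullin ligase adaptors, at 14.5 ± 0.773 and 13.4 ± 0.314 (edgeR adjusted p = 0.202).

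Antioxidant response elements share the core TGACNNNGC, and the short stretches around each match are shown because they are where NRF2 or BACH1 with a small MAF could bind. Both strands were searched from 250 bases before to 50 bases after each annotated start, in RefSeq promoter windows of build GRCm38.p6, which is not the build named for the deposited files. All 10 genes had a window, and 4 held the core (Nfe2l2, Mafg, Maff and Sod1), while 13.99% of 27025 genes with a window did. Of these 4, none was called, and Maff could not be tested; its match lies in 1 of its 3 windows. Cat, Keap1, Osgin1, Bach1, Nqo1 and Sod2 had no match, which says only that the core's letters are not in this window. Each sequence below reads 5′ to 3′ on the strand of its gene, with the match in capitals; a match to the other strand appears as the reverse complement.
Nfe2l2 (chr2:75704885-75704913, minus strand): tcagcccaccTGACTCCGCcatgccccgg
Mafg (chr11:120633751-120633779, minus strand): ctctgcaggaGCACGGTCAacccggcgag
Maff (chr15:79346499-79346527, plus strand): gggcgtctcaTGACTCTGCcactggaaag
Sod1 (chr16:90220696-90220724, plus strand): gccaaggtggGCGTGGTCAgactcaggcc

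A longer element, TGCTGA followed by any base and TCA, which is part of the site recognised by small MAF proteins and can overlap a core match, was added after the data had been seen and searched on both strands. Osgin1 was the 1 gene of the 10 that held it, starting 100 bases before the annotated start, and 0.492% of all genes with a window did. Of the NRF2 targets with a window, 0 of 14 called higher held it, against 2 of 16 that were tested and not called. Like the core matches, each is a match of letters and not a measured binding site.
Osgin1 (chr8:119437037-119437066, plus strand): caggggccccTGCTGACTCAcgcttatgaa

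**Figure D4:**
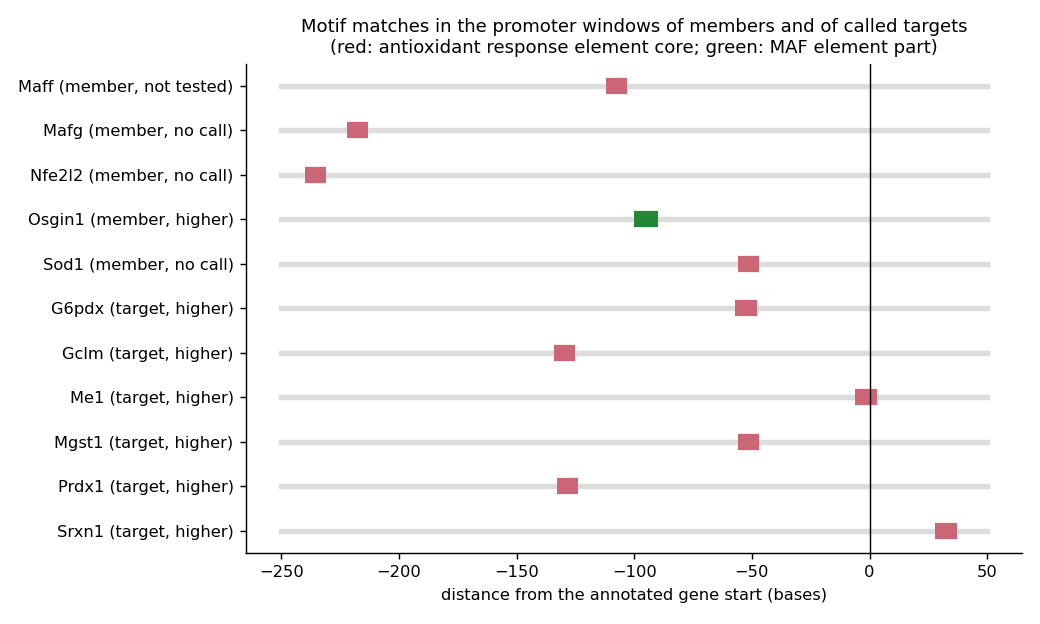
Position of each match relative to the annotated gene start, in bases, for the members with a match and for the NRF2 targets with a match that were called in DKO. Red blocks mark the antioxidant response element core and the green block the longer MAF element of Osgin1; the matches begin between 240 bases before and 28 bases after the start.

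Many of the genes that NRF2 is known to drive were higher in DKO. Of 36 tested NRF2 targets, 17 were higher in DKO and 1, Slc7a11, was lower, beside 7.42% and 6.88% of all genes tested, and the median log2 fold change was 0.15. The list was drawn up with earlier results of these libraries known and is not independent evidence of its direction. Hmox1, which degrades haem, rose from 225, 231 and 227 FPKM to 401, 383 and 403 (0.81 ± 0.04 SE on the log2 scale, edgeR adjusted p = 7.95e-12), with no overlap. Slc48a1, a haem transporter of the lysosome, rose from 116 ± 3.34 to 170.4 ± 1.61 FPKM (edgeR adjusted p = 3.93e-09). Gclm, the modifier subunit of the enzyme that starts glutathione synthesis, rose from 22.3 ± 0.434 to 34.7 ± 2.57 (edgeR adjusted p = 1.87e-07), and Gstm1, a glutathione transferase, from 39.4 ± 1.91 to 57.8 ± 2.88 (edgeR adjusted p = 8.57e-07). Slc7a11, the cystine importer, went the other way, from 67.5, 67.0 and 67.4 to 61.3, 61.0 and 59.4 FPKM (−0.14 ± 0.04 SE on the log2 scale, edgeR adjusted p = 0.0159). It missed the threshold without LKO replicate 2 (edgeR adjusted p = 0.0576), DKO replicate 2 (0.0536) or DKO replicate 3 (0.0818). The expected counts of Gstm1 and Slc7a11 were fractional, as for Sod2. Limma called 11 targets higher instead of 17.

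Of the higher targets, 14 had a promoter window and 6 of these held the core, against 6 of 16 targets that were tested and not called. Those that did were Gclm, Prdx1, Mgst1, G6pdx, Me1 and Srxn1, chosen after their values were seen. In 5 of them the match began before the annotated start.
Gclm (chr3:122245413-122245441, plus strand): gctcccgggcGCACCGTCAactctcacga
Prdx1 (chr4:116685456-116685484, plus strand): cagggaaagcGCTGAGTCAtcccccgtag
Mgst1 (chr6:138140461-138140489, plus strand): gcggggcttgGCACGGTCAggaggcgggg
G6pdx (chrX:74428919-74428947, minus strand): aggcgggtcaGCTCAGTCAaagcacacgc
Me1 (chr9:86695902-86695930, minus strand): gatgccgccgTGACTCAGCgcttctcgcg

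Bach1 transcripts overlapped between the groups, whereas most of the genes it is known to repress were higher in DKO. Of 9 such genes tested, 7 were higher and 1, again Slc7a11, was lower, beside 7.42% and 6.88% of all genes tested. The median log2 fold change was 0.23, and 8 of the 9 are also on the NRF2 target list. The BACH1 list too was drawn up with earlier results of these libraries known and is not independent evidence of its direction. Whether BACH1 had a part in these changes was not tested. Limma called 5 higher, without the ferritin subunits Fth1 (adjusted p = 0.0849) and Ftl1 (0.0777). After quantile normalization the log2 fold change of Ftl1 was 0.00. That scaling gives every library the same value at each rank. It can therefore hide a change in a gene as abundant as Ftl1 (percentile 99.98 by mean FPKM), but whether it did so here was not tested. The member outside the NRF2 target list was Slc40a1, the iron exporter ferroportin. It rose from 16.6, 16.6 and 15.2 FPKM to 31.1, 31.0 and 33.4 (0.99 ± 0.06 SE on the log2 scale, edgeR adjusted p = 7.34e-11).

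Among 22 other antioxidant genes tested, 5 were higher in DKO and 0 lower, beside 7.42% and 6.88% of all genes tested. The list was meant for enzymes that handle superoxide and peroxides, but also holds others, such as Pon3 and Msrb1, both among the 5. The median log2 fold change of the list was 0.08. Prdx1 and Srxn1, both among the 5, are also on the NRF2 target list, as are Txn1 and Txnrd1. This list too was drawn up with earlier results known. DESeq2 and limma each called 3 higher and 0 lower, and 2 were lower at an unadjusted p under 0.05 in edgeR. Without LKO replicate 1 there was 1 lower call, for Gpx1, a glutathione peroxidase (edgeR adjusted p = 0.0473). Pon3, a lactonase, rose from 7.85 ± 0.370 to 10.3 ± 0.138 FPKM (edgeR adjusted p = 0.00391). Prdx1 and Prdx4, peroxiredoxins of the cytosol and of the endoplasmic reticulum, rose from 496 ± 30.4 to 571 ± 42.2 and from 20.6 ± 2.24 to 26.0 ± 2.07 FPKM. Srxn1, which repairs oxidised peroxiredoxins, rose from 10.6 ± 0.483 to 12.6 ± 0.168, and Msrb1, a methionine sulfoxide reductase, from 74.9 ± 3.31 to 87.7 ± 8.30. The last 4 calls were weak, and DESeq2 did not call Prdx4 (adjusted p = 0.0663) or Srxn1 (0.11). Limma did not call Prdx1 (adjusted p = 0.0776) or Msrb1 (0.0702), so the 3 genes called by each tool were not the same. By edgeR, Prdx1 lost its call without LKO replicate 3 (adjusted p = 0.0556) or DKO replicate 1 (0.0611), and Prdx4 without LKO replicate 3 (0.0706) or DKO replicate 3 (0.0771). Srxn1 lost it without LKO replicate 2 (0.0729), and Msrb1 without LKO replicate 1 (0.0531) or DKO replicate 1 (0.141). The count of 5 became 3 without LKO replicate 3 or without DKO replicate 1.

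**Figure D5:**
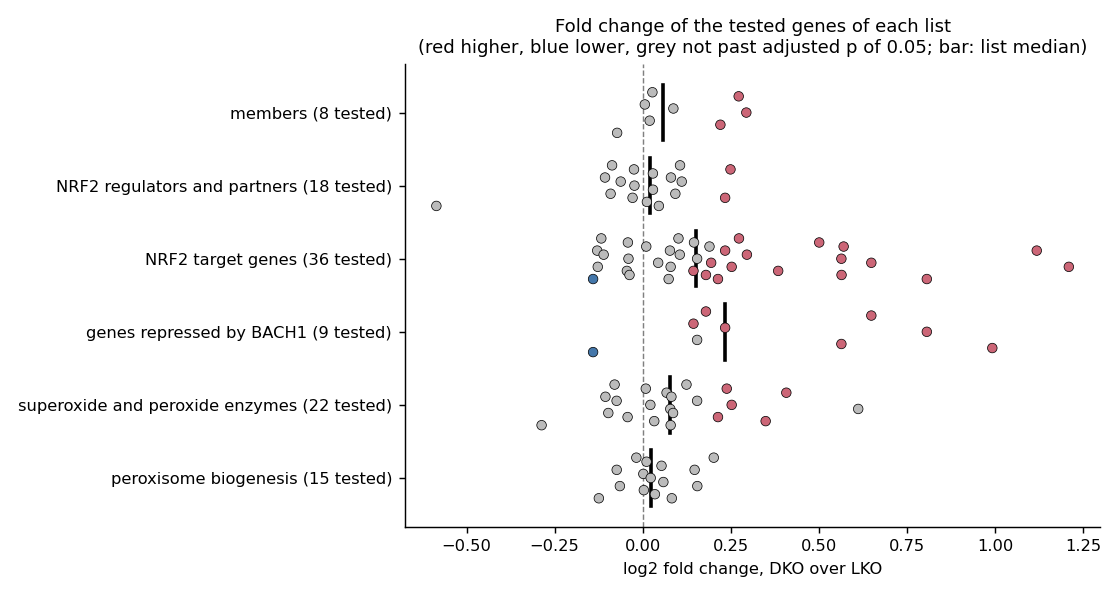
Log2 fold change of DKO over LKO for each tested gene of the 6 lists, with the list median as a black bar, red for genes higher and blue for genes lower at an edgeR adjusted p under 0.05. The medians lie between 0.02 and 0.23, and the points of the NRF2 target and BACH1 lists reach further to the right than those of the 10 genes or of the regulators.

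The tested genes whose log2 level, from counts scaled to depth, followed Nfe2l2 most closely over the 6 libraries were Crcp (Pearson r = 0.990), AI504432 (0.986) and Polq (0.985). For Nqo1 they were Wdr25 (0.989), Mien1 (0.981) and Ppm1a (0.971), although Nqo1 rested on 1 to 11 reads a library. Over 6 libraries that share depth and group, 176 genes had r above 0.9 with Nfe2l2 and 47 with Nqo1, so these values only describe the libraries.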

How the data were processed

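Each deposited table lists NCBI gene numbers with transcript length, FPKM and expected count, per the file headers. The authors' expected counts estimate how many reads a gene received; 23.2% to 23.6% of listed values were fractional by more than 0.005. FPKM values were scaled by the authors to length and depth. The submitters' processing notes name Bowtie 0.12.2 and mm8. The counting tool and strand setting were not given in the sources used here, and a gene cannot be separated from an antisense partner. Genes that a library did not list were set to 0. Of 16871 gene numbers, 16832 matched a RefSeq symbol.

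Counts were rounded and tested over 11809 genes with edgeR 4.0.16 quasi-likelihood (R 4.3.3, filterByExpr, TMM, no block, Benjamini-Hochberg threshold 0.05). Standard errors and 95% intervals come from the fold change and F statistic. Single values used exact permutation tests. The 3 libraries of a group differed by more than sampling noise (chi-square per degree of freedom 1.68 to 3.71) and were counted separately. Counting intervals cover counting error only. The scripts were tested on simulated data.

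Members and lists were chosen with earlier results of these data known. Named genes were Aldh2, the 10 members, up to 4 genes of smallest p per list, every gene of a direction with 5 or fewer calls, and the 3 genes most like Nfe2l2 and Nqo1. Alternatives were DESeq2 1.42.0, DESeq2 size factors, no count filter, a replicate block, a threshold of 0.01, each replicate left out, and limma 3.58.1 on log2(FPKM + 1), keeping genes that reached 1 FPKM in 3 or more libraries, also with pseudocounts of 0.1 and 5, no filter, quantile normalization or median centring. Fold changes on that scale understate low genes. Protein sequences were not used here.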

Additional observations from a re-analysis of the deposited data

How the results depend on the processing

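The count of 1689 genes past the threshold was 1119 in limma with a pseudocount of 0.1, 807 without a filter, 1108 after quantile normalization, 1124 after median centring and 1005 at an adjusted p of 0.01. It ranged from 1175 to 1481 when 1 replicate was left out. The 3 higher members became 1 in limma without a filter and at an adjusted p of 0.01, and were 1 to 3 with a replicate left out; the count of lower members was 0 in every fit run. Higher NRF2 targets numbered 11 in limma with pseudocounts of 1, 0.1 or 5 or after median centring, 10 without a filter and 14 to 18 with a replicate left out. The lower target was lost at an adjusted p of 0.01 (0) and ranged from 0 to 1 with a replicate left out. Differences in log2 ratio stayed negative with a replicate left out, from −0.32 to −0.28 for Nfe2l2 to Keap1, −0.09 to −0.05 for Nfe2l2 to Bach1 and −0.08 to −0.04 for Sod2 to Sod1. Apart from the settings that test fewer libraries or raise the threshold, the cause of these shifts was not tested. With the replicate number as a block, 1553 genes passed and 3 members were higher. Deviations of same-numbered libraries from their group means correlated at −0.06 to 0.02, so no pairing by number was seen. With 3 libraries a group, this cannot show whether same-numbered libraries shared a preparation. Over all fits, the largest median log2 fold change of all genes was 0.0103 in absolute size. Scaling tends to hold this median near 0, so it does not measure what the choice of scaling did to single genes. Depth limits Nqo1 and Maff, where 3 reads are worth 0.177 and 0.140 FPKM.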
